A study of Mus musculus with 26 samples.

Results

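A pair of deletions at the mouse Fgf9 locus was compared in XY gonads at embryonic stage E13.5. Δ93 was represented by 6 RNA-seq libraries and Δ306 by 3, which makes 9 of the 26 samples of the series. The 9 libraries were chosen by the genotype in their labels, and WT (3 libraries) served as the reference. All 9 carry a deletion and all 12 libraries share stage, tissue and labelled XY sex. The labels name the genotypes Fgf9 delta93 and Fgf9 <delta>306 and give no deletion boundaries, zygosity, strain, parents, litters or number of founder lines, nor whether gonads were pooled. They call the Δ93 libraries biological replicates. For WT and Δ306 nothing says that replicates came from separate embryos, so p-values measure only the spread between these libraries.

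Fgf9 encodes a secreted fibroblast growth factor made by Sertoli cells, the supporting cells of the fetal testis. It signals through FGFR2, keeps the testis factor Sox9 active and represses Wnt4. Loss of Fgf9 in XY mouse gonads is known to divert supporting cells to the ovarian, pre-granulosa fate, and germ cells in an ovarian setting enter meiosis before birth. FGF receptors act through the RAS-ERK cascade, which switches on its own inhibitors of the Sprouty and DUSP families and the ETS factors Etv1, Etv4 and Etv5.

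Total counts per library were 20641724 to 46914704 in Δ93, 21797725 to 31815037 in Δ306 and 38287264 to 53392393 in WT. The gonadal markers Wt1, Gata4 and Nr5a1 were present in every library, at 155 CPM or more, where CPM are read counts scaled to a library of 1000000. The summed level of 8 Y-linked genes was 31.9 to 78.3 CPM in WT. In Δ93 it was 8.02, 4.53, 3.66, 0.0796, 0.401 and 3.98 CPM in replicates 1 to 6, and in Δ306 15.9, 14.7 and 1.59 CPM. Thus 3 libraries labelled XY, Δ93 replicates 4 and 5 and Δ306 replicate 3, were nearly free of Y-linked RNA. Their Xist, the RNA of the inactive X, was at 6.42, 0.226 and 0.671 CPM against at most 0.99 in the other 9 libraries. For the main gene groups the counts of calls are also given without these 3 libraries, which leaves Δ93 replicates 1, 2, 3 and 6 and Δ306 replicates 1 and 2. The 3 were set apart after their values were seen. They are not a sharply separate class, with 1.59 CPM in Δ306 replicate 3 against 3.66 CPM in Δ93 replicate 3, which was kept. WT and Δ306 come from one set of sample records and Δ93 from another with a different label format. Record set and genotype therefore cannot be told apart between the 2 deletions, nor between Δ93 and WT. Processed pseudogenes took 3.39 to 3.96% of counts in Δ306, 3.65% in Δ93 replicate 1 and 1.88 to 2.45% in Δ93 replicates 2 to 6.

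**Figure D1:**
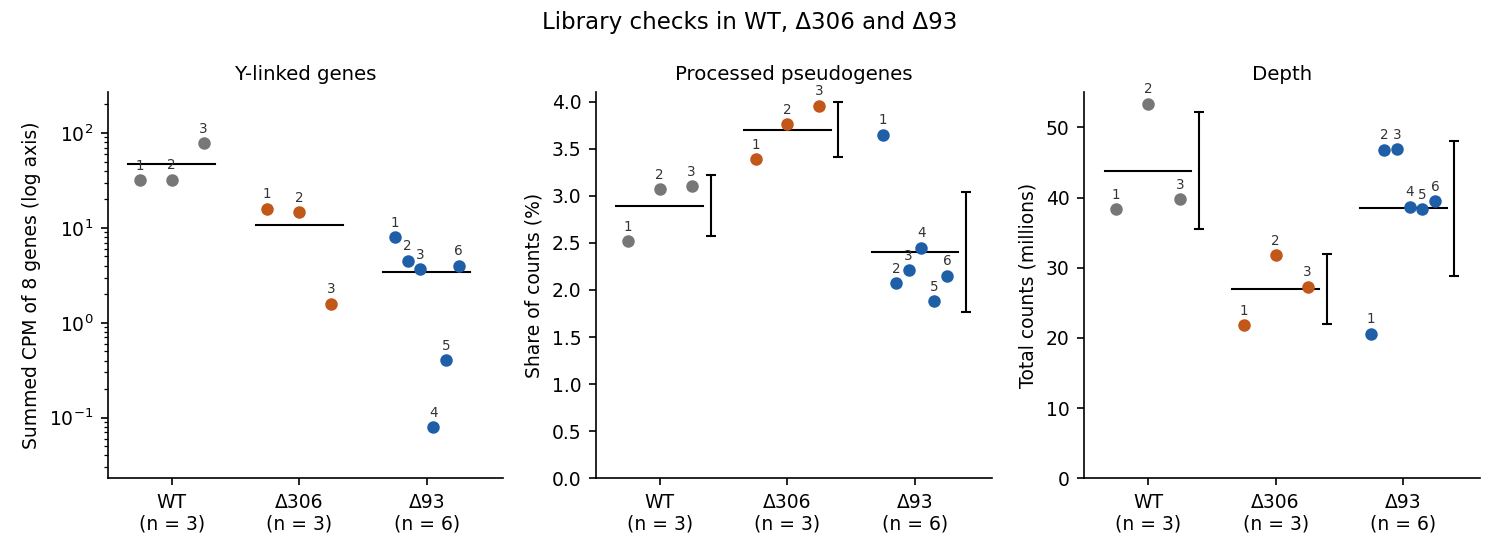
Summed CPM of 8 Y-linked genes (log axis), share of counts on processed pseudogenes (%) and total counts in each library of WT, Δ306 and Δ93; points are libraries with their replicate number, lines are group means and bars on the linear panels are ± SD. Δ93 replicates 4 and 5 and Δ306 replicate 3 lie lowest in Y-linked RNA, and Δ93 replicate 1 lies with Δ306 in its pseudogene share.

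Fgf9 was low in both deletions, and they could not be told apart in it. Fgf9 (ENSMUSG00000021974, GRCm38 chr14:58070547-58112720, plus strand) was at 2.92, 2.30, 2.62, 4.75, 2.78 and 3.09 CPM in Δ93 and at 2.94, 2.17 and 2.33 CPM in Δ306. WT had 9.85, 9.21 and 9.55 CPM. Every library of both deletions lay below every WT library, the deletions overlapped each other, and Δ93 replicate 4 was the highest of the 9. The Δ93 mean was 32.3% of the WT mean and the Δ306 mean 26%, with changes against WT of −1.63 (adjusted p 0.00532) and −1.94 (adjusted p 0.0148) on the log2 scale. The Δ306 call was lost without Δ306 replicate 2 or 3 (adjusted p 0.0655 and 0.0704). The difference between Δ93 and Δ306 was 0.31 (SE 0.38, 95% interval −0.49 to 1.11, adjusted p 0.862 by edgeR's quasi-likelihood test), so the data allow a Δ93 level from 0.714 to 2.16 times that of Δ306. A two-sided exact permutation test of the CPM values gave p = 0.262, where 84 arrangements allow no p below 0.0238. In gonad RNA, fewer cells of a type and less RNA per cell cannot be told apart.

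No gene near Fgf9 separated the deletions. Within 1 Mb of the Fgf9 start, GENCODE M21 lists 15 other protein-coding genes, all on the side of lower coordinates, and 12 were tested. Their Δ93 minus Δ306 differences ran from −0.57 (Gjb2, a gap junction gene) to 0.70 (Il17d, a cytokine gene). None was called, with a lowest adjusted p of 0.596, and 10 of the 12 had a 95% interval within 1 log2 unit of 0. The nearest, Micu2, which regulates mitochondrial calcium uptake, differed by 0.23 (interval −0.04 to 0.50). On the side of higher coordinates there are 8 annotated genes, none of them protein-coding, and 2 were tested. One is the lincRNA Gm33321, whose Δ93 level of 1.05 to 1.65 CPM and Δ306 level of 0.922 to 1.20 CPM both lay above the WT range of 0.253 to 0.628 CPM. Its increase over WT was called in Δ93 (1.68, adjusted p 0.0189) and not in Δ306 (1.27, adjusted p 0.128), and the deletions differed by 0.41 (adjusted p 0.828).

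The genes that read out FGF signalling were low in both deletions. The deletions were first set against WT, where 3229 of 22941 genes (14.1%) were called in Δ93 and 1474 (6.43%) in Δ306 at an adjusted p under 0.05. Counts of calls in the 2 deletions are not like for like. Δ93 has 6 libraries and Δ306 has 3, and of the 2 only Δ93 differs from WT in record set. The Δ306 calls split 680 higher and 794 lower, and 975 and 603 with library sizes taken without composition factors. Without the 3 libraries nearly free of Y-linked RNA, 1574 genes were called in Δ93 and 131 in Δ306, where replicates 1 and 2 remain. Without Δ306 replicate 2 alone, a library with 14.7 CPM of Y-linked RNA, 362 genes were called in Δ306, and 205 without Δ306 replicate 3 alone. The part of the smaller number of libraries in these lower counts was not tested. Of 12 listed feedback and target genes of FGF-ERK signalling, 7 fell in Δ93 and 5 in Δ306 (lower genes over the whole table: 6.84% and 3.46%), and none rose. The median change against WT was −0.96 in Δ93 and −1.06 in Δ306, against 0.06 and 0.08 over all genes. Without the 3 libraries, 5 and 0 of the 12 were called lower, with medians of −0.68 and −0.98. Both comparisons share the WT libraries, so their likeness was not tested. Leaving out single libraries gave counts of 5 (without WT replicate 3) to 9 (without Δ93 replicate 6) in Δ93, and in Δ306 of 0 without Δ306 replicate 2 or 3, 1 without WT replicate 2 and 2 without WT replicate 3. Over all listed genes and the 20 strongest shared changes, 121 genes were called against WT in Δ93 and 70 of these kept the call without each library in turn. In Δ306 the numbers were 68 and 17, and the 17 included Foxl2, Fst, Rec8, Star and Wnt5a but neither Fgf9 nor Spry1.

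Spry1, an inhibitor of receptor tyrosine kinase signalling, was at 14.9, 14.7, 15.5, 18.8, 14.8 and 21.2 CPM in Δ93 and at 20.3, 13.6 and 16.3 CPM in Δ306. WT had 40.3, 37.0 and 45.8 CPM. The deletions overlapped and both lay below all WT libraries. Spry1 fell by 1.30 log2 units in each deletion (adjusted p 0.0014 in Δ93 and 0.0107 in Δ306), and the deletions differed by −0.01 (95% interval −0.50 to 0.48). Dusp6, an ERK phosphatase, fell by 1.42 in Δ93 (adjusted p 0.00237) and by 1.26 in Δ306 (adjusted p 0.0285). Etv1, an ETS factor, fell by 1.62 and 1.55 (adjusted p 0.00566 and 0.0405). Spry4 fell by 1.35 and 1.51 (adjusted p 0.00626 and 0.0216). Over the 12 genes the median Δ93 minus Δ306 difference was 0.01, 9 had a 95% interval within 1 of 0 (50.6% of all genes tested did), and no member was called. The lowest adjusted p was 0.367, at Spred1, a RAS-ERK inhibitor that was higher in all 6 Δ93 libraries (109 to 132 CPM) than in the 3 Δ306 libraries (88.5 to 95.8 CPM).

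The 8 genes of the receptor list and 8 ligand genes tested, Fgf9 among the latter, gave no call between the deletions either. Besides FGF receptor genes the receptor list holds Klb, Sdc1 and Gpc4. Fgfr2, the receptor tied to Fgf9 in Sertoli cells, was at 142 to 234 CPM in Δ93, 125 to 164 CPM in Δ306 and 74.1 to 101 CPM in WT. All libraries of both deletions lay above WT, and the increase was called in Δ93 (1.13, adjusted p 0.00413) but not in Δ306 (0.77, adjusted p 0.0802). Fgfr1 fell in both (−0.69, adjusted p 0.00472, and −0.74, adjusted p 0.0176). Among the ligands Fgf10, a mesenchymal growth factor, fell by 2.14 in Δ93 (adjusted p 0.00263) and was at −1.26 in Δ306 (adjusted p 0.143), and Fgf18 fell by 0.97 in Δ93 (adjusted p 0.0126) and was at −0.80 in Δ306 (adjusted p 0.112). Neither differed between the deletions by edgeR's test (Fgf10 −0.88, interval −1.78 to 0.02; Fgf18 −0.18, interval −0.71 to 0.35). Fgf2 was higher in every Δ93 library (18.6 to 25.9 CPM) than in every Δ306 library (14.7 to 18.1 CPM), a difference of 0.46 with an adjusted p of 0.495. Fgf20 and Fgf21 did not pass the filter on low counts.

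Sertoli effector genes lay below WT in both deletions, and Amh spread widely among replicates. Amh, the Sertoli hormone that removes the female duct, was at 58.5, 1.71, 102, 2.49, 1.18 and 384 CPM in Δ93 and at 151, 154 and 4.95 CPM in Δ306. WT had 1685, 1263 and 1397 CPM. Every deletion library was below WT, and Δ93 ran from the lowest to the highest of the 9. The fitted difference between the deletions was −0.17 with a 95% interval of −3.25 to 2.90, which spans changes of several fold in either direction. Against WT neither change was called (−3.98, adjusted p 0.0751, and −3.81, adjusted p 0.253).

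Sox9, the central transcription factor of Sertoli cells, split the libraries of each deletion into the same high and low ones. It was at 43.9, 9.69, 46.1, 11.2, 11.1 and 74.1 CPM in Δ93 and 64.0, 50.5 and 11.2 CPM in Δ306, against 98.7 CPM or more in WT. Δ93 replicates 2, 4 and 5 and Δ306 replicate 3 lay low in both Amh and Sox9. Of these, Δ93 replicate 2 is not among the libraries nearly free of Y-linked RNA. The difference between the deletions was −0.36 (95% interval −1.65 to 0.93). Among 15 Sertoli effector genes all lay below WT in both deletions, 7 fell in Δ93 and 3 in Δ306 (lower genes over the whole table: 6.84% and 3.46%), and the 3 were Vnn1, Defb19 and Mro. Defb19, a Sertoli defensin, fell by 3.44 (adjusted p 0.00523) and 3.76 (adjusted p 0.0293). The list median was −2.58 in Δ93 and −2.24 in Δ306 against WT and −0.17 between the deletions, where only 3 of 15 intervals stayed within 1 of 0. Without the 3 libraries nearly free of Y-linked RNA, 4 of the 15 were called in Δ93 and 0 in Δ306. Leaving out single libraries gave 4 in Δ93 without WT replicate 1 or 2 and 11 without Δ93 replicate 6, and 1 in Δ306 without Δ306 replicate 3 or WT replicate 1.

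Dmrt1, a factor that maintains the male fate, was at 22.5 to 75.4 CPM in Δ93, 37.7 to 56.5 CPM in Δ306 and 31.2 to 75.0 CPM in WT. The 3 groups overlapped and no change was called. Nr0b1, an orphan nuclear receptor gene on the X chromosome, rose in both, by 1.17 in Δ93 (adjusted p 0.0105) and 1.23 in Δ306 (adjusted p 0.0276), with the deletions differing by −0.06 (interval −0.63 to 0.51). The Nr0b1 call in Δ306 was lost without any single library of Δ306 or WT. In Δ93 it was lost at least without WT replicate 2 or 3. Sox8, a relative of Sox9, fell by 2.66 in Δ93 (adjusted p 0.0067) and was at −2.54 in Δ306 (adjusted p 0.0521).

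Pre-granulosa genes were high in both deletions. Foxl2, the defining transcription factor of these cells, was at 42.5, 129.9, 79.9, 137, 141 and 52.0 CPM in Δ93 and at 36.5, 45.0 and 85.7 CPM in Δ306, against 0.633 to 0.829 CPM in WT. All deletion libraries lay far above WT and the deletions overlapped. Foxl2 rose by 7.02 in Δ93 (adjusted p 9.92e-04) and 6.22 in Δ306 (adjusted p 0.00541). The deletions differed by 0.80, with an interval of −0.85 to 2.45. Fst, which encodes the activin antagonist follistatin, rose by 7.02 and 6.49 (adjusted p 0.00121 and 0.00588), and Rspo1, an activator of WNT signalling, by 2.19 and 1.90 (adjusted p 0.00119 and 0.00966). Of 11 genes tested 10 rose in Δ93 and 7 in Δ306 (higher genes over the whole table: 7.23% and 2.96%), and the remaining member, the oestrogen receptor gene Esr2, fell in both (−1.40, adjusted p 0.00845, and −2.04, adjusted p 0.00853). Without the 3 libraries nearly free of Y-linked RNA the counts higher were 10 and 2. In Δ306 the count was 3 without Δ306 replicate 3, WT replicate 2 or WT replicate 3 and 4 without WT replicate 1. The Esr2 call was lost in Δ93 without WT replicate 1 and in Δ306 without Δ306 replicate 3.

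Between the deletions all 11 pre-granulosa genes lay on the higher side in Δ93, with a median of 0.48 against 0.02 over all genes, and none was called (lowest adjusted p 0.567). The members are not independent of each other, and only 2 intervals stayed within 1 of 0. Lef1, a WNT-pathway transcription factor, was the member with all 6 Δ93 libraries (32.2 to 41.3 CPM) above the 3 Δ306 libraries (17.9, 26.0 and 29.7 CPM). Its difference was 0.57 (SE 0.28, interval −0.01 to 1.15, adjusted p 0.567).

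**Figure D2:**
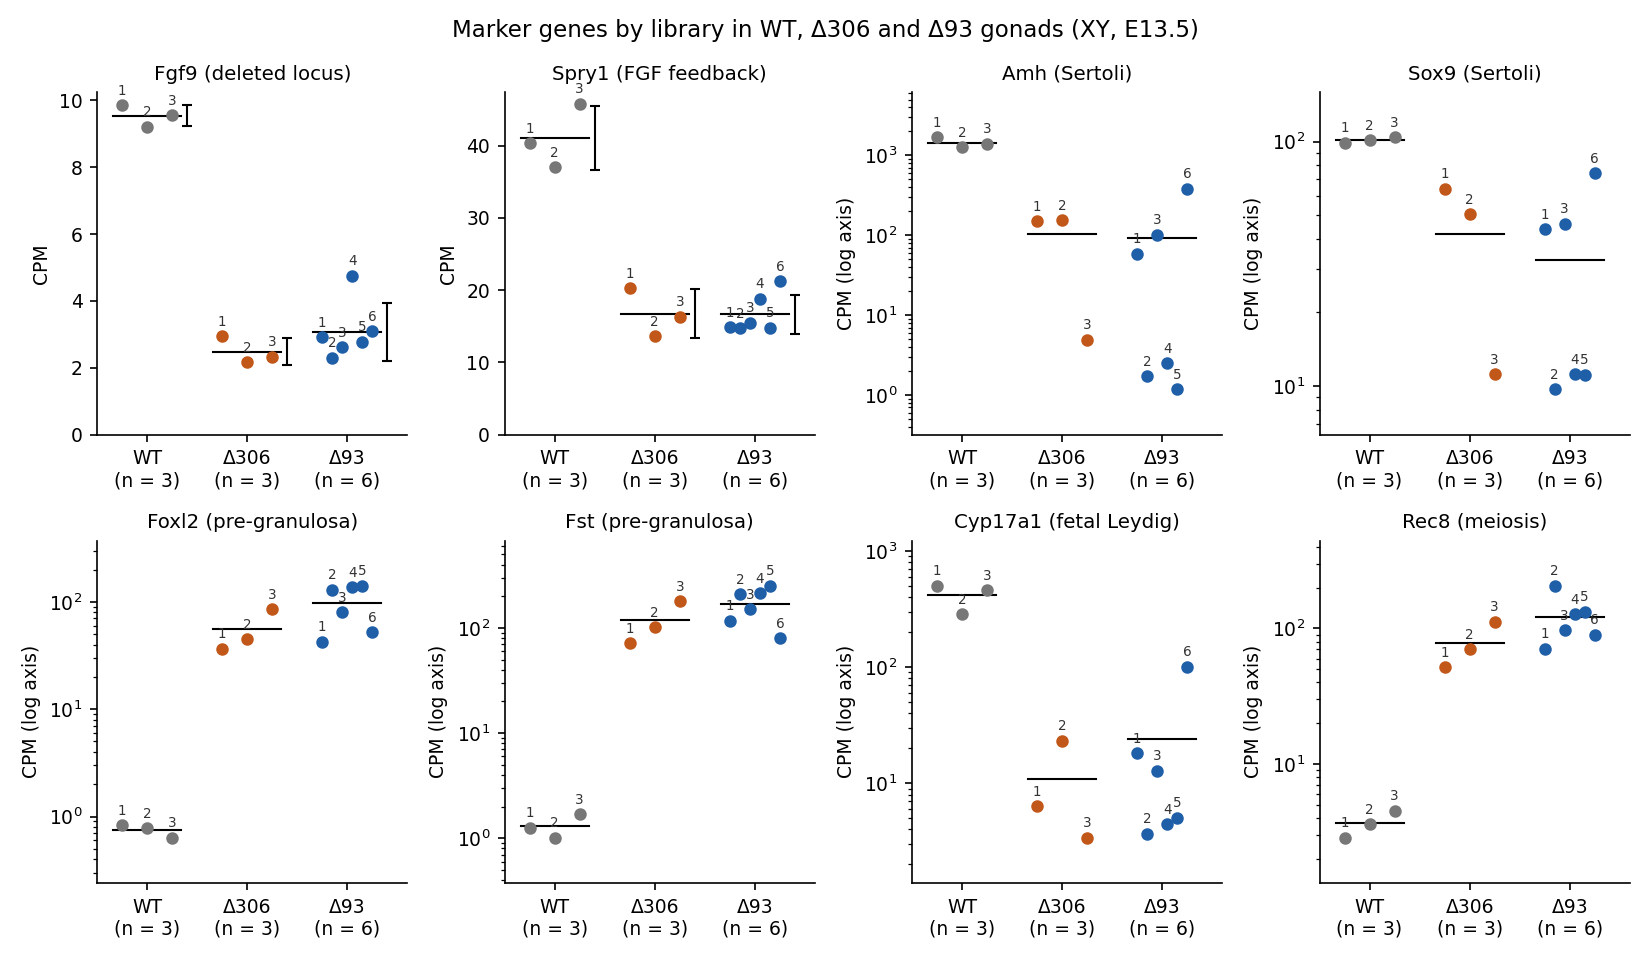
CPM of 8 marker genes in each library of WT, Δ306 and Δ93 (log axis where stated); points are libraries with their replicate number, lines are group means and bars on the linear panels are ± SD. Fgf9 lies at 2.30 to 4.75 CPM within Δ93, whereas Amh runs from 1.18 to 384 CPM within Δ93 and from 4.95 to 154 CPM within Δ306.

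Most genes of steroid-producing fetal Leydig cells were low in both deletions. Cyp17a1, an androgen synthesis enzyme, was at 18.2, 3.69, 12.8, 4.46, 5.06 and 101 CPM in Δ93 and at 6.36, 23.2 and 3.39 CPM in Δ306, against 501, 287 and 461 CPM in WT. Every deletion library was below WT, and Δ93 replicate 6, which also had the most Amh and Sox9 of its group, was the highest of the 9. Cyp17a1 fell by 4.11 in Δ93 (adjusted p 0.0116) and fell by 5.24 in Δ306 (adjusted p 0.0342). Star, which delivers cholesterol to mitochondria, fell by 3.42 and 4.24 (adjusted p 0.00121 and 0.00588). Of 10 fetal Leydig genes 8 fell in Δ93 and 6 in Δ306 (lower genes over the whole table: 6.84% and 3.46%), with medians of −2.78 and −3.52. Between the deletions the median was 0.78, 9 of 10 lay higher in Δ93 and none was called (lowest adjusted p 0.706). Without the 3 libraries nearly free of Y-linked RNA the counts lower were 4 and 0. The Δ93 count was 4 without WT replicate 1, and the Δ306 count was 1 without Δ306 replicate 3 and 3 without any other library of Δ306 or WT.

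Of 15 interstitial and coelomic progenitor genes, 10 fell and 3 rose in Δ93, and 7 fell and 1 rose in Δ306 (whole table: 6.84% lower and 7.23% higher in Δ93, 3.46% and 2.96% in Δ306). With the 3 libraries nearly free of Y-linked RNA left out, 7 were called lower and 1 higher in Δ93, and 1 lower and 0 higher in Δ306. Wnt5a, a mesenchymal WNT ligand, fell by 1.46 (adjusted p 9.37e-04) and 1.71 (adjusted p 0.00395). Ptch1, a hedgehog receptor and target, fell by 1.70 and 1.57 (adjusted p 0.00278 and 0.0276). Lhx2, a LIM homeobox gene, rose by 2.95 and 2.37 (adjusted p 0.00542 and 0.0407). Between the deletions 9 of the 15 intervals were within 1 of 0, the median was 0.25 and no member was called. The count lower in Δ306 was 3 without Δ306 replicate 2 or 3 or WT replicate 1 or 2 and 4 without WT replicate 3. The count higher in Δ93 was 1 without Δ93 replicate 2 or 4 or any WT library, and in Δ306 it was 0 without any library other than Δ306 replicate 1.

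The genes with the strongest changes against WT in both deletions were chosen by the smaller of the 2 changes, among genes called in both with a mean of at least 1 CPM over the 22 libraries. The 10 highest were Stra8, Isx, Foxl2, Fst, Cdx2, Chrm4, Gpr55, Scrt2, Oprk1 and Tph2. Isx, an intestinal homeobox gene, was at 4.82 to 12.1 CPM in Δ93, 3.91 to 8.41 CPM in Δ306 and at most 0.0528 CPM in WT. Chrm4, a muscarinic receptor gene, was at 20.2 to 71.3 CPM in Δ93, 25.2 to 58.1 CPM in Δ306 and 0.475 to 0.583 CPM in WT. In each case the deletions overlapped and lay clear of WT. The differences between the deletions at the 10 genes ran from −0.60 to 1.22, and the lowest adjusted p was 0.81.

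The 10 lowest were Serpina5, Cbln1, Mal, Cyp17a1, Crhr1, Miox, Cyp21a1, C7, Adh1 and Serpina3b. Cyp21a1 has a near-identical pseudogene and its counts are uncertain. Cbln1, a secreted synaptic organiser in the brain, was at 13.1, 5.27, 12.6, 3.34, 4.64 and 27.2 CPM in Δ93 and at 8.43, 13.0 and 5.16 CPM in Δ306, against 214, 257 and 229 CPM in WT. Both deletions lay below all WT libraries and overlapped. Cbln1 fell by 4.41 (adjusted p 7.03e-04) and 4.72 (adjusted p 0.00685), and the deletions differed by 0.31 (interval −1.15 to 1.77). At the other 9 genes the differences between the deletions ran up to 3.08, at Cyp21a1, for which Δ306 held 1 read in all, and the lowest adjusted p over the 10 was 0.758.

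The meiotic genes Stra8 and Rec8 were high in both deletions. Stra8, which triggers meiotic entry, was at 49.3, 219.6, 69.0, 324, 128 and 81.9 CPM in Δ93 and at 27.1, 64.5 and 95.9 CPM in Δ306, against 0 to 0.777 CPM in WT. It rose in both (adjusted p 0.00342 and 0.0151). Rec8, a meiotic cohesin, rose by 5.04 in Δ93 (adjusted p 9.05e-04) and 4.42 in Δ306 (adjusted p 0.00545). Of 12 meiotic genes 10 rose in Δ93 and these 2 in Δ306 (higher genes over the whole table: 7.23% and 2.96%), and the median change was 3.24 and 1.66. The counts were 5 and 1 without the 3 libraries nearly free of Y-linked RNA. Dazl, a germ-cell RNA-binding protein, was at 305 to 503 CPM in Δ93, 179 to 403 CPM in Δ306 and 4.30, 188 and 284 CPM in WT, so that WT replicate 1 held little germ-cell RNA. Without WT replicate 1, 3 of the 12 meiotic genes were called higher in Δ93 and 1 in Δ306. The Δ93 count was 5 without WT replicate 2 or Δ93 replicate 4 and 6 without WT replicate 3, and the Δ306 count was 1 without Δ306 replicate 3 or WT replicate 3.

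Between the deletions all 12 meiotic genes lay higher in Δ93, with a median of 1.55, and none was called (lowest adjusted p 0.341, at Prdm9, a meiotic histone methyltransferase). Prdm9 was at 3.06, 15.3, 3.23, 107, 10.8 and 3.22 CPM in Δ93 and at 2.46, 4.05 and 2.79 CPM in Δ306. At Prdm9, Δ93 replicates 1, 3 and 6 lay within the Δ306 range. Δ93 replicate 4 was the highest of the 9 libraries at each of the 12 genes except Rec8. Terb1, which ties meiotic telomeres to the nuclear envelope, had all 6 Δ93 libraries (3.96, 13.1, 2.23, 71.5, 6.77 and 3.04 CPM) above the 3 Δ306 libraries (1.01, 1.87 and 1.91 CPM), a difference of 3.39 with an adjusted p of 0.255. Without Δ93 replicate 4 the list median was 0.91, and without the 3 libraries nearly free of Y-linked RNA, of which replicate 4 is one, it was 1.07.

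**Figure D3:**
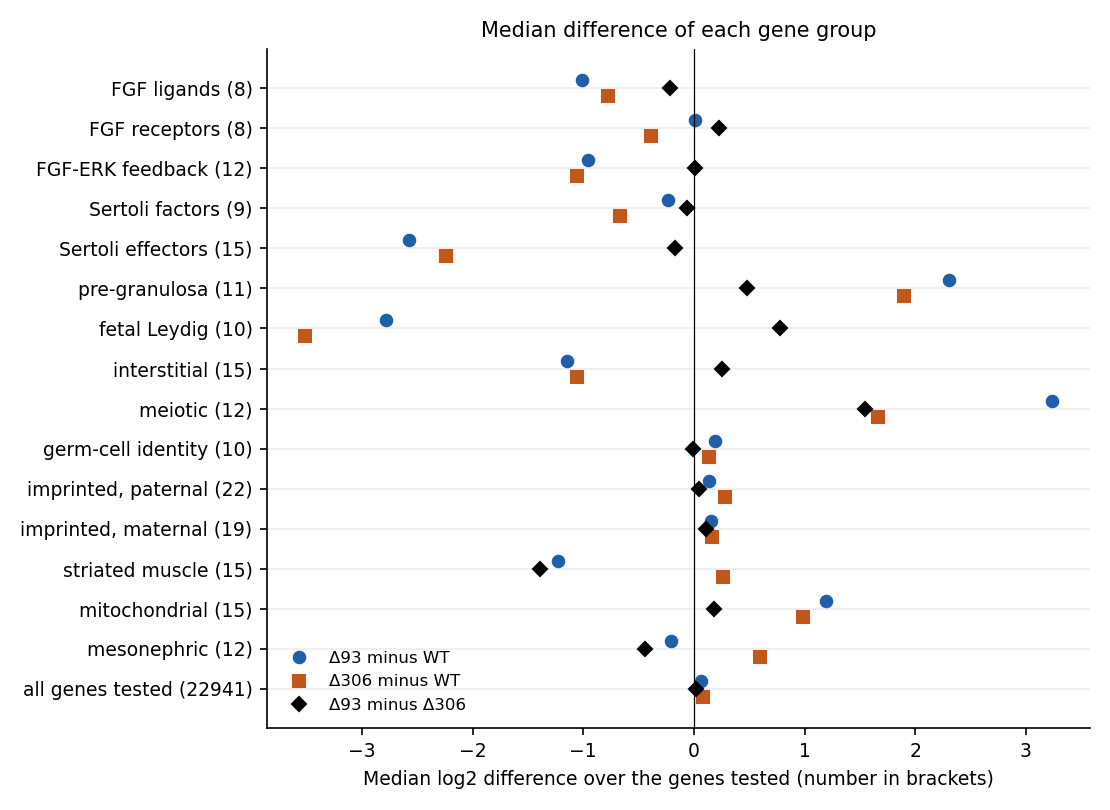
Median log2 difference of 15 gene groups and of all genes tested, for Δ93 minus WT (circles), Δ306 minus WT (squares) and Δ93 minus Δ306 (diamonds), with the number of genes tested in brackets. The circles and squares share the WT libraries; the diamonds lie farthest from 0 for the meiotic (1.55) and striated muscle (−1.39) groups.

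Across the whole table the deletions differed at 18 of 22941 genes (0.0785%), 3 higher in Δ93 (0.0131%) and 15 lower (0.0654%). Before adjustment 2065 genes (9%) had a p under 0.05. All 6 Δ93 libraries lay above all 3 Δ306 libraries at 770 genes (3.36%) and below them at 694 (3.03%). For 11610 genes (50.6%) the 95% interval of the difference lay within 1 log2 unit of 0, so for the others the data do not show likeness. With library sizes taken without composition factors the calls split 1 higher and 24 lower. Other methods gave a less uneven split: 76 of 179 calls were higher in Δ93 with DESeq2, and 1191 of 3102 with limma voom and sample quality weights. The number of calls moved with single libraries. It was 123 without Δ93 replicate 1, of which 79 were processed pseudogenes and 31 protein-coding, and 3 without Δ306 replicate 1 or 2. It was 4 without Δ93 replicate 2, 3, 5 or 6, 9 without Δ306 replicate 3 and 11 without Δ93 replicate 4. Mest, Gm56999 and Peg13 were called without each of the 9 libraries in turn, Gm5292 was lost without Δ306 replicate 1 or 2, and each of the other 14 was lost in 6 to 8 of the 9 fits. Without the 3 libraries nearly free of Y-linked RNA it was 2, Mest and Gm56999. In the authors' deposited table of this pair, 168 genes had an adjusted p under 0.05, including 16 of the 18.

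**Figure D4:**
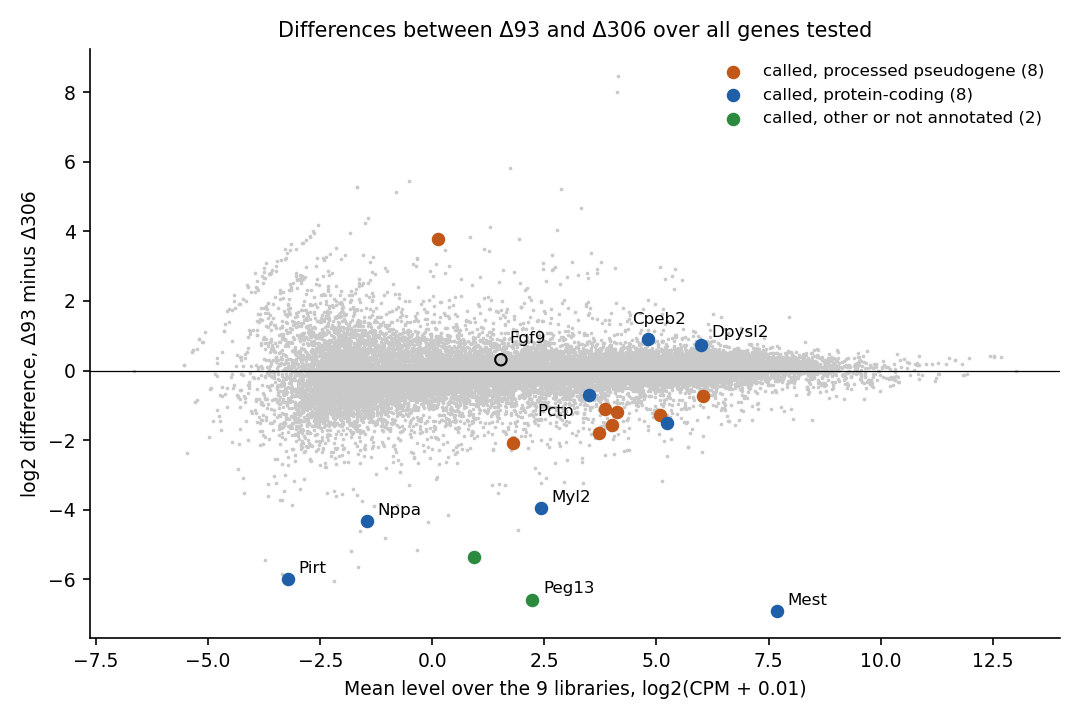
Log2 difference Δ93 minus Δ306 (vertical) against the mean level over the 9 libraries as log2(CPM + 0.01) (horizontal) for each gene tested; coloured points are the 18 called genes by annotation, the open circle is Fgf9, and 63 genes with no finite estimate are not drawn. Mest is the called gene with the largest difference (−6.91) and the highest level, and Fgf9 lies at 0.31.

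Mest had the lowest adjusted p and the largest difference among the called genes. It is an imprinted gene, expressed from the paternal allele only, and encodes a hydrolase-like protein of mesoderm. Its paternal expression goes with a CG-rich promoter that is methylated on the maternal allele. RefSeq places an outer and an inner start of Mest, and a further start lies 3 bases from the inner one. The 250 bases before the 2 starts are shown with those before the Fgf9 start because Mest had the largest difference and Fgf9 was low in both. They are RefSeq sequences on GRCm38.p6, written 5′ to 3′ on the plus strand with each CG in capitals. For both genes the RefSeq starts used here lie inside the gene coordinates given elsewhere in the text, which are those of GENCODE M21 and begin at lower positions.
Mest outer start, chr6:30733256-30733505: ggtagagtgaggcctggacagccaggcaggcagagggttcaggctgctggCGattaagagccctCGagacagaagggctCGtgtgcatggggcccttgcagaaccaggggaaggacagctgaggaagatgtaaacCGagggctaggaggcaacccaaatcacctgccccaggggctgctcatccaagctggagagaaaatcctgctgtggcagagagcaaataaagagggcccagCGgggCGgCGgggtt
Mest inner start, chr6:30737803-30738052: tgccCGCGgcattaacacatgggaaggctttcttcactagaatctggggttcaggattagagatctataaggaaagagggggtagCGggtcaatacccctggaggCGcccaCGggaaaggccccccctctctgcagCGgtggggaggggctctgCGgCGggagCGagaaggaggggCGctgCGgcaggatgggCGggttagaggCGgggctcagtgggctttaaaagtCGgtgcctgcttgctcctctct
Fgf9, chr14:58072436-58072685: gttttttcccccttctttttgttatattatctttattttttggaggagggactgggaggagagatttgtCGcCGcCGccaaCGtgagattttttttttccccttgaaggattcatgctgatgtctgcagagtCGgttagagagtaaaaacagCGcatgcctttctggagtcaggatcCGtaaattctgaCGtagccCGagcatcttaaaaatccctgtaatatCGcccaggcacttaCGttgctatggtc
The inner Mest promoter holds 14 CG and the outer 7, against a median of 6 over 32851 promoters of this length, of which 29.4% hold at least 14. The Fgf9 promoter holds 11, a number that 35.6% of promoters reach. No methylation was measured.

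Mest (ENSMUSG00000051855, GRCm38 chr6:30723547-30748465, plus strand) was at 6.79, 3.56, 4.99, 2.41, 3.26 and 9.26 CPM in Δ93 and at 719, 467 and 629 CPM in Δ306. WT had 925, 721 and 698 CPM. All 6 Δ93 libraries were low and no other library was, and Δ306 did not differ from WT by the test (−0.37, adjusted p 0.567). The difference between the deletions was −6.91 (SE 0.32, 95% interval −7.58 to −6.24, adjusted p 2.49e-11) and was called in 19 of 19 alternatives. Mest was also at 386 to 695 CPM in the 6 libraries of Δ225 and at 532 to 591 CPM in the 4 of Δ104, further Fgf9 deletions from the same set of records as Δ93.

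Genes beside Mest on chromosome 6 lay higher in Δ93 without a call. This window was chosen after the Mest values were seen. All 10 protein-coding neighbours within 300 kb had differences above 0, from 0.09 to 1.33, none was called, and at 5 the 6 Δ93 libraries lay above the 3 Δ306 libraries (3.36% of all genes did). Copg2, a coat protein gene that overlaps the far end of Mest and is imprinted in the opposite direction in some tissues, was at 95.7, 144, 122, 126, 119 and 131 CPM in Δ93 and at 78.9, 83.9 and 89.9 CPM in Δ306. The Δ306 values lay within the WT range of 71.3 to 96.5 CPM, and so did the lowest Δ93 library. The difference was 0.55 (SE 0.16, adjusted p 0.255). The strand setting of the counting is not given in the sources used here, so reads where Copg2 and Mest overlap are uncertain. Klf14, a maternally expressed transcription factor gene of this cluster, differed by 1.33 (SE 0.34, adjusted p 0.191), and Cpa1, a carboxypeptidase gene, by 1.33 (SE 0.27, adjusted p 0.0734), where Δ306 (14.1 to 20.5 CPM) and not Δ93 (28.2 to 72.8 CPM) lay clear of WT (39.8 to 42.5 CPM).

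Of 22 tested genes listed as paternally expressed, 2 were called between the deletions, both lower in Δ93 (lower genes over the whole table: 0.0654%). The other 20, among them Peg3, Igf2, Dlk1 and Peg10, were not. The list also holds Zim1, which is maternally expressed in mouse. The list median was 0.05, and at 5 of the 22 all Δ93 libraries lay below all Δ306 libraries (3.03% of all genes did). Peg3, a zinc finger gene, was at 1078 to 2199 CPM in Δ93 and 1420 to 1721 CPM in Δ306, which overlap, and differed by 0.18 (interval −0.39 to 0.74). The second call was Peg13, a non-coding RNA inside an intron of Trappc9 on chromosome 15, whose intronic reads could be counted with it. It was at 0.141, 0.0843, 0.108, 0.292, 0.150 and 0.102 CPM in Δ93 and at 0.219, 17.3 and 23.9 CPM in Δ306, with 36.9, 5.36 and 31.0 CPM in WT. Δ306 replicate 1 lay within the Δ93 range, the only overlap among the 18 calls. The difference was −6.58 (SE 0.92, adjusted p 0.00348), and adjusted p was 0.155 without the 3 libraries nearly free of Y-linked RNA. The Δ225 libraries had 0.0967 to 0.390 CPM and the Δ104 libraries 1.61 to 31.0 CPM.

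None of 19 maternally expressed genes was called between the deletions (median 0.11), where 0.0785% of all genes were. Both deletions had more Cdkn1c, a cell cycle inhibitor, than WT (1.49, adjusted p 0.0171, and 1.47, adjusted p 0.049), and they differed by 0.02. Neither Cdkn1c call was kept without each library in turn. H19, a growth-restraining non-coding RNA, was at 14.9 to 40.8 CPM in Δ93 and 20.0 to 23.6 CPM in Δ306, while WT had 1245, 9.21 and 1586 CPM. The deletions overlapped and the WT libraries did not agree among themselves.

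Myl2, a ventricular myosin light chain gene, was at 0.330, 0.695, 1.04, 1.14, 1.18 and 1.05 CPM in Δ93 and at 17.2, 11.3 and 14.1 CPM in Δ306. WT lay between, at 5.70, 6.25 and 5.35 CPM. The 3 groups did not overlap. Myl2 fell in Δ93 against Δ306 by 3.96 (SE 0.75, adjusted p 0.0438) and against WT by 2.66 (adjusted p 0.02). Of 15 striated muscle genes it was the one called between the deletions (lower genes over the whole table: 0.0654%). The list median was −1.39, and at 6 genes (Myl2, Myl3, Myl7, Myh6, Myh7 and Tnnt2) all Δ93 libraries lay below all Δ306 libraries (3.03% of all genes did). Of the 15, 12 lay below 0, and Acta1 (0.18), Myh3 (0.20) and Myh8 (0.84) lay above. The summed level of the 16 listed genes was 97.9 to 259.7 CPM in Δ93, highest in replicate 5, and 186 to 257 CPM in Δ306, so the sums overlapped.

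Tnnt2, cardiac troponin T, was at 3.68, 1.43, 2.02, 2.44, 6.84 and 1.79 CPM in Δ93 and at most 21.2 CPM in Δ306, with 9.36 to 13.3 CPM in WT. All Δ93 libraries lay below WT and all Δ306 libraries above it. The difference was −2.57 (SE 0.86, adjusted p 0.341). Nppa, the atrial natriuretic peptide gene, was called at a far lower level, at most 0.100 CPM in Δ93 and 0.446 to 1.62 CPM in Δ306 (adjusted p 0.0403). The Myl2 call was lost without any single library of the 9 other than Δ93 replicate 1 and without the 3 libraries nearly free of Y-linked RNA (adjusted p 0.408), where the list median was −1.98. In the same sample records as Δ93, Myl2 was at 0 to 5.95 CPM in Δ225 and 0.0581 to 0.681 CPM in Δ104.

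**Figure D5:**
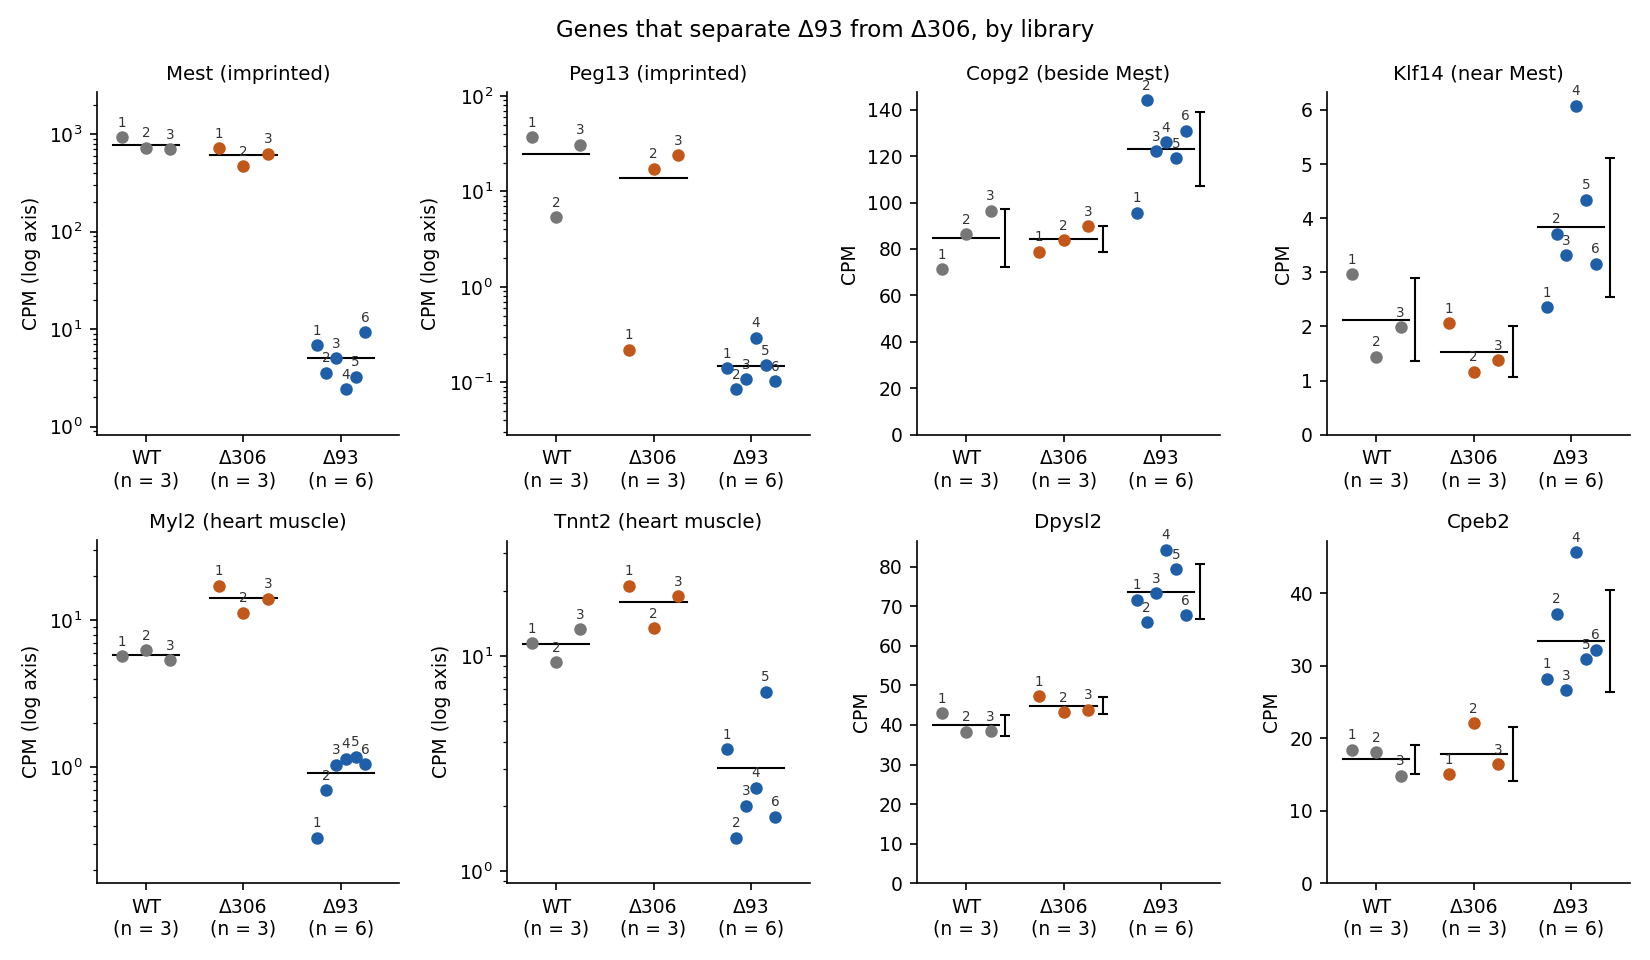
CPM of 8 genes in each library of WT, Δ306 and Δ93 (log axis where stated); points are libraries with their replicate number, lines are group means and bars on the linear panels are ± SD. Mest lies at 2.41 to 9.26 CPM in Δ93 and at 467 CPM or more elsewhere, and Peg13 in Δ306 replicate 1 lies at the Δ93 level.

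The 3 genes higher in Δ93 were Gm5292, Dpysl2 and Cpeb2. Dpysl2, a cytoskeletal regulator of neurite growth, was at 71.7, 66.0, 73.3, 84.3, 79.4 and 67.8 CPM in Δ93 and at 47.3, 43.3 and 43.9 CPM in Δ306, with 38.3 to 43.0 CPM in WT. The gene lies on chromosome 14, 8.7 Mb from Fgf9. Its difference was 0.72 (SE 0.13, adjusted p 0.0403). Cpeb2, a regulator of mRNA translation, was at 26.6 to 45.7 CPM in Δ93 and at 15.0, 22.1 and 16.4 CPM in Δ306, with 14.8 to 18.4 CPM in WT, and differed by 0.91 (SE 0.17, adjusted p 0.0403). The Δ93 libraries lay above all Δ306 and WT libraries in both genes. Gm5292, a processed pseudogene 654 kb from Cpeb2 on chromosome 5, was at 1.31 to 2.26 CPM in Δ93 and 0.0439 to 0.177 CPM in Δ306 (3.77, adjusted p 0.0039). Reads of a processed pseudogene can be shared with its parent gene, so its counts are uncertain.

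Among the 15 lower genes, 7 were processed pseudogenes and Gm56999 had no entry in GENCODE M21. Gm56999 was at 0.100 to 0.236 CPM in Δ93 and 5.29 to 5.53 CPM in Δ306 (−5.36, SE 0.32, adjusted p 1.69e-09), with 3.36 to 4.87 CPM in WT. Like Mest it was low in all 6 Δ93 libraries and in no other library. Gm5469, a pseudogene, was at 5.52 to 10.3 CPM in Δ93 and 21.7 to 27.1 CPM in Δ306 (−1.80, adjusted p 0.0188). The remaining protein-coding genes were Gm6793, Pirt and Pctp. Pctp, a phosphatidylcholine transfer protein gene, was at 7.80 to 10.5 CPM in Δ93 and at 15.0, 15.7 and 15.3 CPM in Δ306 (−0.71, SE 0.14, adjusted p 0.046). Pirt, a regulator of sensory ion channels, held 1 read in all in Δ93.

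Over 2269 tested processed pseudogenes the median difference was −0.33, and 7.62% had all Δ93 libraries below Δ306 against 0.705% above. Over 16264 protein-coding genes the median was 0.07, with 2.36% below and 4.38% above. In a fit of protein-coding genes alone, chosen after the calls were seen, 3 genes were called: Mest (−6.96), Pctp (−0.77) and Nppa (−4.38). The part of the pseudogene share in the calls was not tested. Δ225 and Δ104, from the same records as Δ93, had median levels nearer to Δ93 than to Δ306 at 13 of the 18 genes, the 8 pseudogenes, Gm6793, Nppa, Dpysl2, Cpeb2 and Myl2. Both medians were nearer to Δ306 at 3 genes, Mest, Gm56999 and Pirt.

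By size alone, among genes with a mean of at least 5 CPM and no overlap between the 9 libraries, the 5 with the largest differences were Mest, Myl2, Terb1, Shisa3 and Dkk2. Dkk2, a secreted modulator of WNT signalling, was at 1.41, 0.758, 1.04, 1.62, 1.90 and 1.74 CPM in Δ93 and at 28.8, 6.36 and 4.45 CPM in Δ306, with 17.8, 8.08 and 8.41 CPM in WT. The difference of −3.23 (SE 0.63) missed the threshold with an adjusted p of 0.0533. Shisa3, an inhibitor of WNT and FGF receptor maturation, was at 1.70 to 3.98 CPM in Δ93 and at 52.1, 9.58 and 14.9 CPM in Δ306 (−3.23, adjusted p 0.136), with 40.3, 2.74 and 2.40 CPM in WT. Δ306 replicate 1 was the highest library of both genes among the deletions.

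Markers of neighbouring tissue and blood gave no call between the deletions. Of 12 mesonephric genes the median was −0.44, and Wnt9b, a ligand of the mesonephric duct, was at 0.0501 to 0.186 CPM in Δ93 and at 4.52, 0.297 and 2.76 CPM in Δ306 (−4.34, adjusted p 0.191). WT had 7.28, 0.253 and 0.923 CPM of Wnt9b. The summed level of 8 red blood cell genes was 5356 to 58698 CPM in Δ93 and 12016 to 23003 CPM in Δ306. Endothelial genes had a median of 0.06, with 9 of 9 intervals within 1 of 0. Mitochondrial transcripts were at 25047 to 31465 CPM in Δ93, 21274 to 28549 CPM in Δ306 and 8613 to 18844 CPM in WT, so both deletions lay above WT and overlapped each other. Of 15 mitochondrial genes 5 rose in Δ93 and 4 in Δ306 (higher genes over the whole table: 7.23% and 2.96%), and without the 3 libraries nearly free of Y-linked RNA 3 and 0 were called. The Δ93 count was 2 without WT replicate 1 or 2, and the Δ306 count was 1 without Δ306 replicate 3 or WT replicate 2 and 2 without WT replicate 1.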

How the data were processed

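Gonads of XY mouse embryos at day 13.5 were separated from the mesonephros and sequenced as poly(A) RNA with a directional kit, per the labels' protocols. The authors deposited a table of raw read counts per gene for 57186 genes on mm10. Per the submitters' processing notes, WT and Δ306 were aligned with STAR 2.7.10a and the notes name featureCounts, while for Δ93 they name STAR without a version. The annotation and strand setting of the counting are not given in the sources used here. The authors' deposited table of log2 fold changes and adjusted p-values (DESeq2) was used only where it is named. Gene symbols came from GENCODE M21 for 51880 genes and from the deposited comparison for 4775.

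Genes were filtered with edgeR's filterByExpr, and 22941 were fitted with edgeR 4.0.16 (TMM factors, quasi-likelihood test, 1 factor for genotype) on 22 libraries: WT 3, Δ306 3, Δ93 6, and the further deletions Δ225 (6) and Δ104 (4), which contribute to the estimate of spread. A gene was called at a Benjamini-Hochberg adjusted p under 0.05 over all genes tested. Printed log2 differences, standard errors and 95% intervals come from the fit without shrinkage. CPM are counts per 1000000 of TMM-scaled library size. No counts of 2 libraries agreed within sampling noise. Intervals cover the spread between libraries, and depth is 20641724 counts or more per library.

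The members and lists (25 lists, 276 entries) were chosen with earlier results of these data known. Genes were named by rule: those called between the deletions, with at most 4 without an informative symbol; Fgf9; called members of each list and its 2 to 4 most abundant members; the 10 highest and 10 lowest shared changes against WT; the 5 largest differences without overlap at a mean of 5 CPM or more; and protein-coding genes within 1 Mb of Fgf9. One gene that the rule names is not reported here. Genes outside this rule, chosen after their values were seen, are those near Mest, Gm33321, and further list members named in the text. Alternatives were DESeq2 1.42.0, limma 3.58.1 voom with sample quality weights, other normalizations and filters, a replicate block and leaving out each library. Those without the 3 libraries nearly free of Y-linked RNA and with protein-coding genes alone were added after seeing the data.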

Additional observations from a re-analysis of the deposited data

Results flagged for a closer look

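Of 42 genes examined for a library far from the rest of its group, 14 had such a library, by Dixon's criterion at the 95% level. The criterion is met in about 1 in 20 groups of normally distributed values. It was applied to CPM without a log scale, which need not be so distributed, so the number of flags cannot be set against that rate. All lay in Δ93, the only group of the 2 deletions large enough to examine, and in every case it was the highest library. Replicate 6 stood out at 5 genes that were low against WT in both deletions: Adh1 (9.93 CPM, next highest 3.21), Crhr1 (3.96, next 0.846), Cyp17a1 (101, next 18.2), Cyp21a1 (0.434, next 0.065) and Serpina5 (0.383, next 0.0472). Replicate 4, one of the libraries nearly free of Y-linked RNA, stood out at 6 genes: Fgf9 (4.75 CPM, next 3.09), Terb1 (71.5, next 13.1), Gm5292 (2.26, next 1.56), Miox (0.637, next 0.236), Peg13 (0.292, next 0.15) and Pirt, where its 0.0265 CPM was the one read of the group. Replicate 1 stood out at 3 genes, Gm15610 (3.25 CPM, next 1.52), Gm9761 (31.8, next 23.7) and Gm56999 (0.236, next 0.147), and it is the Δ93 library with the highest share of processed pseudogenes. The cause of these flags was not tested.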

How the results depend on the processing

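The Fgf9 difference of 0.31 kept its side of the threshold in every alternative run (0.15 to 0.47 without single libraries), and so did the 11610 genes with an interval within 1 of 0 (9812 to 11555), where a count within 1.5 times is taken as kept. Counts of calls moved. Between the deletions, 18 genes became 179 with DESeq2, 3102 with voom and sample quality weights, 8 with the 9 libraries alone, 3 with protein-coding genes alone, 2 without the 3 libraries nearly free of Y-linked RNA, 4 at an adjusted p under 0.01 and 3 to 123 without single libraries. For Δ93 against WT, 3229 became 9713 with voom, 1234 at an adjusted p under 0.01, 1574 without the 3 libraries and 1486 to 3572 without single libraries. For Δ306 against WT, 1474 became 2717 with DESeq2, 962 without a filter, 3429 with the compared groups alone, 9101 with voom, 259 at an adjusted p under 0.01, 131 without the 3 libraries and 205 to 1310 without single libraries. With the replicate number as a replicate block, 3 genes were called between the deletions. The numbers did not pair the libraries (r of −0.0407, −0.0797 and −0.195 between same-numbered Δ93 and Δ306 libraries).

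Of the values of single genes and list medians between the deletions, 6052 were taken as kept. For single genes this means the same side of the threshold, and uncalled values and list medians could change sign. Eif2s3y, at −1.43 in the main fit and not called, ran from −2.08 to 1.45 over the alternatives. Of the other values 162 lost the threshold, 47 passed it newly and 22 moved. A further 3 reversed, all with voom and sample quality weights: Hba-x to −1.86, Hbb-y to −1.65 and Hsd3b6 to −1.92. The cause was not tested. The median SE of the difference between the deletions was 0.34 log2 units over all genes tested, and the number of Δ306 libraries limits its precision.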

Other observations

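Further gene groups gave no call between the deletions. Hspa1a, a heat-shock chaperone gene, was at 8.63, 5.29, 8.24, 6.84, 5.66 and 10.6 CPM in Δ93 and at 9.08, 7.76 and 6.22 CPM in Δ306, against 40.7, 32.1 and 31.2 CPM in WT. The deletions overlapped and lay below WT, with changes of −2.20 (adjusted p 0.00214) and −2.17 (adjusted p 0.0181) by edgeR's test and a difference between the deletions of −0.03 (interval −0.94 to 0.88). Of 10 stress and early-response genes, 4 fell in Δ93 and 3 in Δ306 (lower genes over the whole table: 6.84% and 3.46%). Acta2, smooth muscle actin, fell by 1.43 in Δ93 (adjusted p 0.00932) and by 2.04 in Δ306 (adjusted p 0.00993). It was the 1 gene called of 6 smooth muscle genes in each deletion, beside 6.84% and 3.46% lower over the whole table. In Δ306 the calls of Hspa1a and Acta2 were both lost without Δ306 replicate 2 or 3, and that of Hspa1a also without WT replicate 1.

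Lefty2, a secreted NODAL antagonist, was at 10.2, 0.211, 2.97, 0.159, 0.125 and 25.4 CPM in Δ93 and at 8.03, 12.4 and 0.318 CPM in Δ306, with 5.07, 51.8 and 65.1 CPM in WT. Δ93 replicates 2, 4 and 5 and Δ306 replicate 3, the libraries low in Amh and Sox9, were the lowest here too. None of the 7 male germ-cell genes tested was called against WT in either deletion or between them. Akr1c18, a progesterone-inactivating enzyme, was at 0.189, 0.442, 0.217, 13.3, 1.00 and 0.332 CPM in Δ93 and at 0.176, 0.119 and 0.247 CPM in Δ306, with at most 0.0194 CPM in WT. Its increase was called in Δ93 (adjusted p 0.00583) and not in Δ306 (adjusted p 0.213), and the test of the difference gave an adjusted p of 0.343. Of 10 cell cycle genes 8 lay lower in Δ93 than in Δ306, none was called, and 9 had an interval within 1 of 0.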
